A study of Mus musculus with 7 samples.

Results

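The immunoglobulin kappa variable segments (Igkv) were followed across RNA-seq libraries of sorted bone marrow cells labelled hematopoietic stem cells. A member was any gene of the count table whose symbol starts with Igkv and whose counts summed to at least 10 over 2 control and 4 MC38 libraries. This gave 65 of 28786 genes. The table lists 103 Igkv genes, of which 90 had a count in these libraries and 38 fell below the minimum. Just inside the minimum lay Igkv4-53 with 10 summed counts and Igkv5-37 and Igkv12-41 with 11 each, and just outside it lay Igkv4-72 with 9 and Igkv9-124 and Igkv9-123 with 8 each. Only the summed level chose the members, and the 4 MC38 libraries weighed more in the sum than the 2 controls. The difference between the groups was not part of the rule, although the set was picked with earlier results of these data known.

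The series compared cells from C57BL/6J mice carrying MC38, a mouse colon carcinoma line, with cells from normal mice, labelled control. All mice were 6 to 8 weeks old, and each library came from 1500 sorted cells of flushed femur and tibia marrow after red cell lysis, with 12 cycles of cDNA amplification. Sort markers, sex, time since tumour inoculation and mice per library were not stated in the labels. Nor do the labels state that a group's libraries derive from separate mice, so the p-values measure only the spread between these libraries.

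Total counts were 12131546 and 12306066 in control replicates 1 and 2, and between 13368238 and 17657037 in the 4 MC38 libraries. The third control column was left out because it was nearly a fixed fraction of the sum of the other two columns. For the 9692 genes whose sum reached 200, the median ratio was 0.353 and 95% of genes lay between 0.341 and 0.371. The 22 Igkv members with at least 100 counts in the other control columns had the same pattern, with ratios of 0.343 to 0.366. Markers of stem cells were present in all 6 libraries and summed to 0.162 to 0.179% of control counts and 0.151 to 0.176% of MC38 counts, and edgeR called 0 of 10 such genes, of which 2 had an unadjusted p under 0.05, with 2 calls by DESeq2 and 0 by limma-voom.

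An antibody light chain of the kappa type is assembled in developing B cells, which join 1 of many Igkv segments to 1 of the short Igkj joining segments upstream of the constant exon Igkc. Each B cell or plasma cell then transcribes essentially 1 rearranged kappa gene, so in a pool of such cells the count of each segment follows which clones are present and how much RNA each makes. Hematopoietic stem cells keep the locus unrearranged. In a bulk library, more cells and more RNA per cell cannot be told apart.

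The 65 members comprised 64 annotated variable genes and 1 pseudogene of subfamily 17, and belonged to 18 sequence subfamilies, named by the first number of the symbol. They lay on chr6 between positions 67609713 and 70699067 (mm10), from 23.5 to 3112 kb upstream of the first joining segment Igkj1, with 22 members on the plus strand and 43 on the minus strand. Their exons, a short leader and a variable (V) exon, added up to 338 to 404 bases. In 0 members did an exon overlap an exon of a gene without an Igkv symbol, and overlap with other Igkv genes was not examined.

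Segments that rose and segments that fell included members of 1 subfamily. Igkv6-23 was seen almost only in MC38, Igkv6-20 almost only in control, and Igkv6-15 was the leading segment of the controls. Their V exons are shown on the minus strand of mm10, at chr6:70260409-70260706 for Igkv6-23, chr6:70406469-70406766 for Igkv6-15 and chr6:70335841-70336138 for Igkv6-20. Capitals mark the 55 positions, of 298, at which the 3 sequences are not all the same.
Igkv6-23: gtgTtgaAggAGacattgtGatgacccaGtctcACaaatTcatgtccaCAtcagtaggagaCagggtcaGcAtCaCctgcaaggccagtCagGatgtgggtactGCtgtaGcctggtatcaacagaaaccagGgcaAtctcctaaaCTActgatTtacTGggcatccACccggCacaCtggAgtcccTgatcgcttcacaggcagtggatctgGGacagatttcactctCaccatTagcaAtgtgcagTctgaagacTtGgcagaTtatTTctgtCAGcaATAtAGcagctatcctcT
Igkv6-15: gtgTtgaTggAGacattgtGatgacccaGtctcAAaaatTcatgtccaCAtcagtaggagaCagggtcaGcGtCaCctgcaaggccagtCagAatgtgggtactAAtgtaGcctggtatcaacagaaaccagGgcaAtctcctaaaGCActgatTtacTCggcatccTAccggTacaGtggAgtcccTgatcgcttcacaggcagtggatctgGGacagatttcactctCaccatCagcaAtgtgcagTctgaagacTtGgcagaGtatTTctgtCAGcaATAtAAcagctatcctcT
Igkv6-20: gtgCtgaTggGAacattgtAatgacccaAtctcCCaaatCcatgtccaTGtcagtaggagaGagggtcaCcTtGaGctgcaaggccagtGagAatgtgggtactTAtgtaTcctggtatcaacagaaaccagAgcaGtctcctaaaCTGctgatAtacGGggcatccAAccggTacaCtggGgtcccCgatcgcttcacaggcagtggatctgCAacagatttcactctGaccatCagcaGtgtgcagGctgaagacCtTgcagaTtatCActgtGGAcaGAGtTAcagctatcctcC
Igkv6-23 and Igkv6-15 differed at 16 positions, and Igkv6-20 differed from each of them at 48. Igkv6-20 has a nearer relative, Igkv6-29, which is not a member and is 98.3% identical in the V exon. The part of stretches of 50 bases found in no other immunoglobulin transcript was 47.0% for Igkv6-20, 54.2% for Igkv6-23 and 85.1% for Igkv6-15. Reads outside these stretches may not be assigned with certainty. The V exon encodes the framework and the first antigen-contacting loops of the light chain, and these differences are germline differences between segments, taken from the GENCODE M21 transcripts.

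Igkv6-23 (ENSMUSG00000095630) had 7 and 9 counts in the controls and 5047, 4861, 5201 and 3914 in MC38. Its level was 0.666 ± 0.109 CPM (counts scaled by library size, SD, n = 2) in the controls and 313 ± 26.9 CPM (SD, n = 4) in MC38, a 470-fold difference (log2 fold change 8.86 ± 0.22 SE, edgeR quasi-likelihood test with Benjamini-Hochberg adjustment over 14226 genes, adjusted p = 8.95e-08). All 4 MC38 libraries lay far above both controls. Igkv6-20 (ENSMUSG00000076587) went the other way, with 1566 and 1509 counts in the controls and 0, 9, 9 and 1 in MC38. It fell from 128 ± 4.96 to 0.298 ± 0.306 CPM, 430-fold lower (edgeR, adjusted p = 4.02e-05). Igkv6-15 (ENSMUSG00000094797) had 2208 and 1885 counts in the controls and 489, 516, 710 and 485 in MC38. It was 4.75-fold lower in MC38, at 35.9 ± 2.74 against 171 ± 21.2 CPM (edgeR, adjusted p = 5.24e-05), but stayed readily detected there.

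Total Igkv RNA was higher in the MC38 libraries. Members together received 14883 and 11807 counts in the controls and 27965, 27004, 29935 and 22841 in MC38. As a share of all counts this was 0.123 and 0.0959% in the controls and 0.187, 0.186, 0.170 and 0.171% in MC38, with means of 0.109 ± 0.019% (SD, n = 2) and 0.178 ± 0.0094% (SD, n = 4). The groups did not overlap. Igkc, the constant exon that all kappa transcripts share, rose as well, from 1700 ± 258 to 2690 ± 244 CPM (edgeR, adjusted p = 0.0428). The Igkc call was lost without control replicate 1 or 2 (adjusted p = 0.138 and 0.191) and without MC38 replicate 2 or 4 (0.139 and 0.0977). Igkv counts per Igkc count were 0.665 and 0.643 in the controls and 0.638, 0.651, 0.682 and 0.67 in MC38, so the groups overlapped in this ratio. The joining segments Igkj1 to Igkj5 each had 0 to 2 counts per library.

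Of the 65 members, 49 passed the filter on low counts and were tested. Of these, 23 rose and 10 fell in MC38 at an adjusted p under 0.05, and 16 passed in neither direction. Over all 14226 genes tested, 1.04% were called higher and 0.569% lower. Every MC38 library lay above both controls for 30 tested members and below both for 15, and the groups overlapped for 4. The same was true of 14.0% and 15.0% of all genes tested. The filter itself favoured segments that were high in 1 group: 24 of the tested members reached it in both groups (9 of them rose and 6 fell), 19 reached it in MC38 alone (14 rose) and 6 in control alone (4 fell). With limma-voom in place of edgeR, 13 members were called higher and 9 lower (0.633% and 0.499% of all genes tested). With DESeq2, 28 were called higher and 12 lower (4.14% and 2.57% of all genes tested). Without control replicate 1, 20 were called higher and 6 lower.

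**Figure D1:**
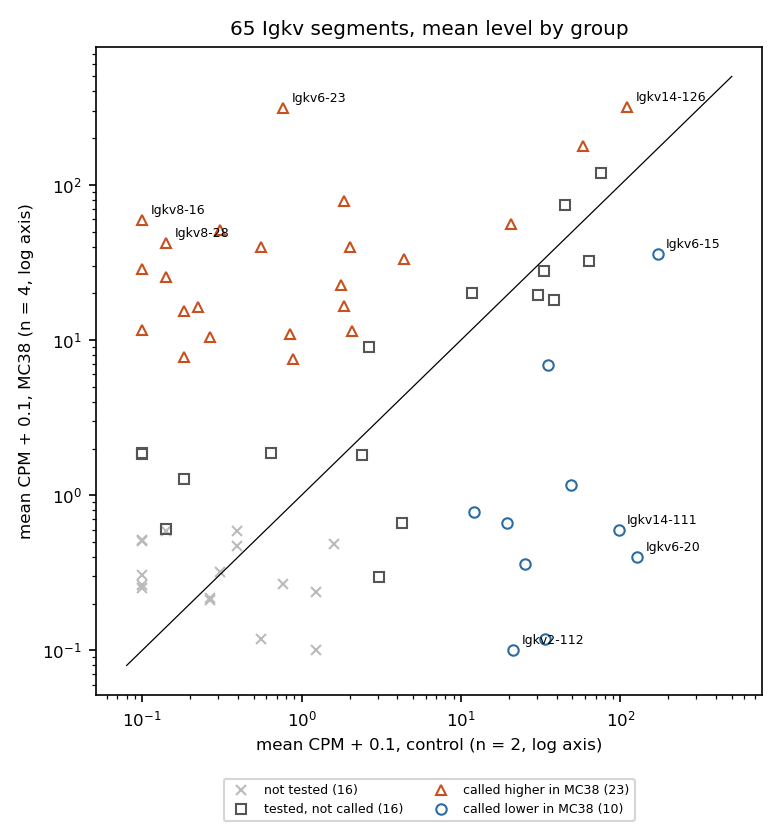
Mean level of each of the 65 segments in control (x axis, n = 2) and MC38 (y axis, n = 4), in CPM plus 0.1 on log axes; the line marks equal levels and the symbols mark the edgeR call. The 23 segments called higher stand above the line and the 10 called lower stand below it, with Igkv6-23 and Igkv8-16 at the upper left and Igkv6-20, Igkv14-111 and Igkv2-112 at the lower right.

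The repertoire, meaning the share of all Igkv counts that each segment holds, was nearly the same among libraries of a group and different between the groups. Summing the smaller of both shares over all segments gives the part of the repertoire that a pair of libraries has in common. It was 92.5% for the control pair and 93.2 to 96.7% for the 6 MC38 pairs (mean 95.4%). For the 8 pairs of a control with an MC38 library it was 37.9 to 38.7% (mean 38.3%). When segments with near-identical V exons were summed, the mean between the groups was 43.7%.

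**Figure D2:**
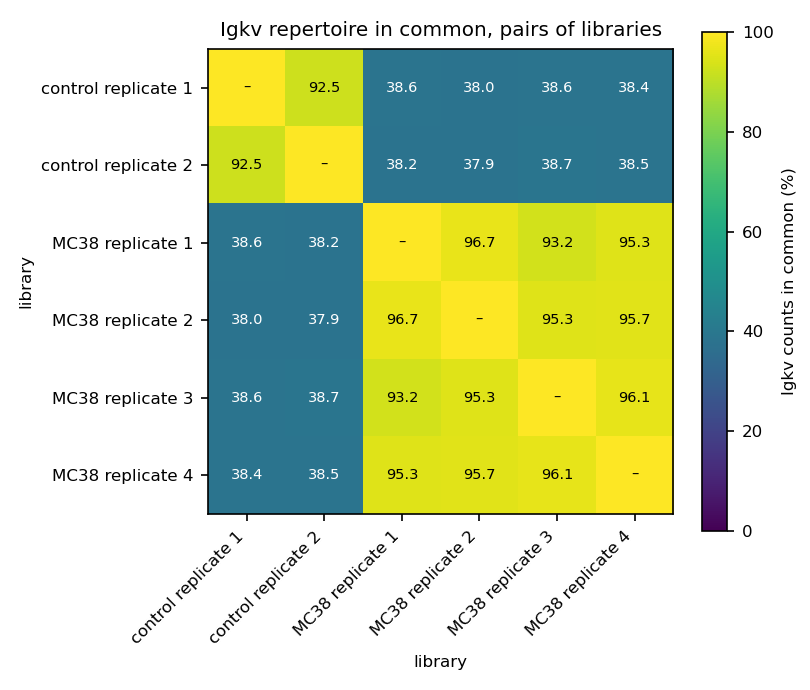
Part of the Igkv repertoire in common (%) for each pair of the 6 libraries, as color and number. Pairs within a group lie at 92.5% or above and pairs across the groups at 38.7% or below.

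Most single segments also varied little among the 4 MC38 libraries. For the 29 members with a mean of at least 10 CPM there, the median coefficient of variation was 11.2% (2.64 to 35.2%). For the 9366 genes that reached the same minimum it was 16.2%. Above that minimum the levels of members and genes were not matched. In the controls the median was 21.7% for 20 members and 12.5% for 9256 genes, over 2 libraries only. Whether the 4 MC38 libraries share cells or animals was not stated by the labels and was not tested.

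The leading segments differed between the groups. In the controls Igkv6-15 held 14.8 and 16.0% of Igkv counts, Igkv6-20 held 10.5 and 12.8%, and Igkv14-126 held 9.88 and 9.82%. In MC38 Igkv14-126 held 17.6, 17.7, 18.3 and 18.0% and Igkv6-23 held 18.0, 18.0, 17.4 and 17.1%, followed by Igkv15-103 with 10.3, 9.70, 9.91 and 10.3%. Scaled by exon length, the order was the same at the top: 492, 342 and 306 CPM per kb for Igkv6-15, Igkv6-20 and Igkv14-126 in the controls, and 885, 847 and 475 CPM per kb for Igkv14-126, Igkv6-23 and Igkv15-103 in MC38. Igkv14-126 and Igkv6-23 were not separated in MC38, since Igkv6-23 had more counts in replicates 1 and 2 and Igkv14-126 in replicates 3 and 4.

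The MC38 repertoire was more concentrated at its top and also reached further down. The 3 leading segments held 36.9 ± 2.4% of Igkv counts in the controls and 45.6 ± 0.28% in MC38. To reach 50% of counts took 5 segments in each control and 4 in each MC38 library, while 90% took 16 in each control and 20, 20, 21 and 21 in MC38. Segments with at least 10 counts numbered 33 and 34 in the controls and 43, 42, 48 and 41 in MC38. The MC38 libraries held more Igkv counts, so that the last number also moves with depth.

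Grouped by call, the 23 segments that rose held 18.5 ± 0.52% of control and 78.5 ± 0.43% of MC38 counts, and the 10 that fell held 53.3 ± 0.82% and 2.62 ± 0.3%. These shares describe segments that were chosen by the same contrast. A total of 18 members had at most 3 counts over both controls, 10 of them with none, and held 12.0 ± 0.29% of the MC38 repertoire. Conversely, 4 members had at most 3 counts over the 4 MC38 libraries, 2 of them with none, and held 4.96 ± 1.1% of the control repertoire. The 18 and the 4 are not like for like. MC38 had more libraries and more Igkv counts, so a segment could more easily reach the minimum through MC38 alone, as Igkv1-99 did. A limit of 3 counts also covers fewer reads in the controls than in MC38.

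**Figure D3:**
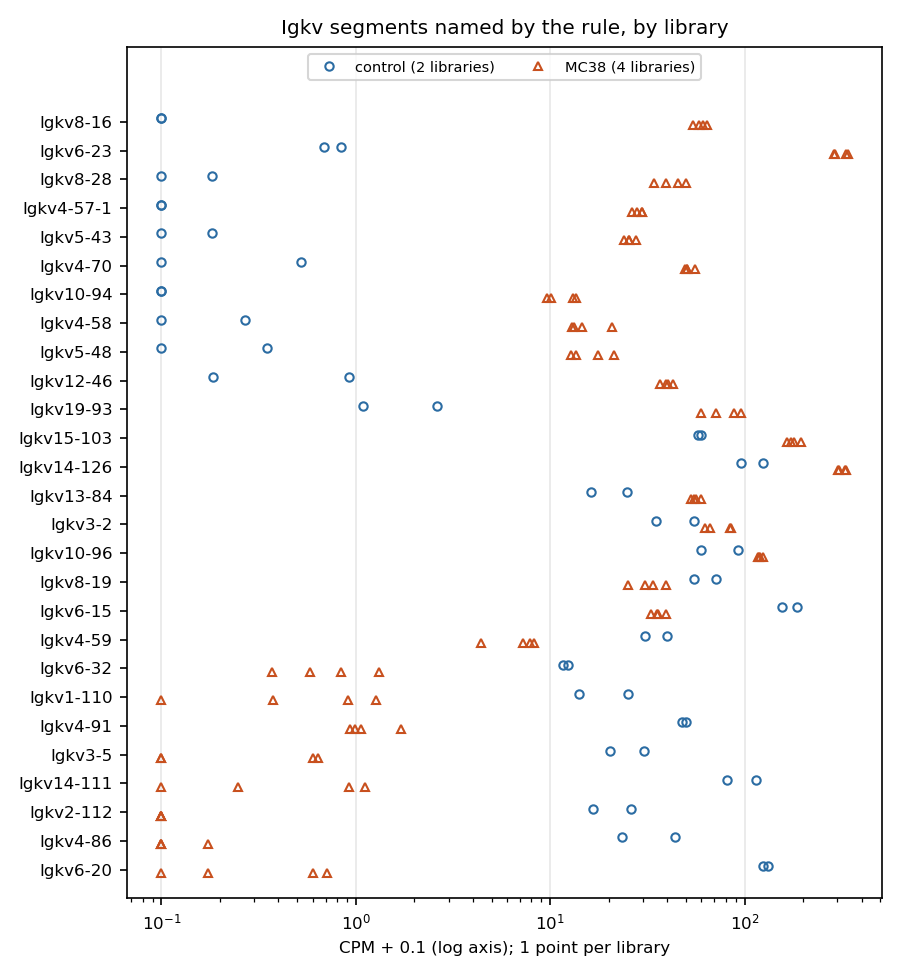
Level of 27 Igkv segments in each library, in CPM plus 0.1 on a log axis, with circles for the 2 control and triangles for the 4 MC38 libraries, so that a point at 0.1 is a count of 0. The groups are separated for every segment drawn, but for segments drawn for their fold change the naming rule required this. It also held for segments drawn for their counts alone, among them Igkv3-2, Igkv10-96 and Igkv8-19, which were not called by edgeR.

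Segments seen in MC38 and all but absent from the controls came from several subfamilies. Igkv8-16 had 0 counts in both controls and 861, 893, 978 and 861 in MC38. Against a floor of 3 counts over both controls, it was at least 475-fold higher (edgeR, adjusted p = 1.42e-05). Its V exon is 100% identical, over the length of the shorter exon, to that of a second annotated segment, Gm43218, not used here. Of its stretches of 50 bases, 15.4% were found in no other immunoglobulin transcript. The counts thus cannot all be assigned to one of them with certainty. Igkv4-57-1 also had 0 control counts, against 442, 408, 473 and 402, and was at least 228-fold higher (edgeR, adjusted p = 5.24e-05). Igkv10-94, with 0 against 141, 190, 242 and 135, was at least 91.9-fold higher (edgeR, adjusted p = 7.44e-04). For all 3 the groups were far apart and no control read was seen, whereas each MC38 library held more than 100.

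A few control reads were present for the next set. Igkv8-28 had 0 and 1 control counts and 737, 662, 614 and 529 MC38 counts, a ratio of 1000 with a 95% counting interval of 180 to 39600 (edgeR, adjusted p = 4.02e-05). Igkv5-43 had 0 and 1 against 355, 369, 492 and 340 (ratio 613, interval 110 to 24200). Igkv4-58 had 2 and 0 against 306, 188, 236 and 194 (ratio 182, interval 50.2 to 1500). These intervals cover counting error only, and they are wide because so few control reads stand behind them. Igkv5-48 had 0 and 3 control counts against 314, 257, 229 and 182, a ratio of 129 with an interval of 44.0 to 626. With only the control that held reads kept, the edgeR log2 fold change moved from 9.70 to 8.85 for Igkv8-28, from 8.98 to 8.12 for Igkv5-43, from 7.37 to 6.43 for Igkv4-58 and from 6.93 to 5.99 for Igkv5-48. With limma-voom the adjusted p of Igkv8-28, Igkv5-43, Igkv4-58, Igkv5-48 and Igkv10-94 was 0.0706, 0.0514, 0.115, 0.137 and 0.0704, so that none of the 5 passed with that tool.

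More control reads backed another trio. Igkv4-70 had 5 and 0 control counts against 748, 810, 905 and 669 and was 245-fold higher in MC38 (edgeR, adjusted p = 6.96e-05). Igkv12-46 had 1 and 10 against 587, 623, 722 and 496, an 87.4-fold difference (edgeR, adjusted p = 2.76e-04). Igkv19-93, the sole member of its subfamily, had 30 and 12 against 1422, 1294, 1070 and 958, a 44.8-fold difference (edgeR, adjusted p = 1.22e-04). In each case every MC38 library exceeded both controls, which the naming rule required of Igkv4-70 and Igkv12-46. The size of these folds depended on single controls. Without control replicate 1 the log2 fold change moved from 6.41 to 5.57 for Igkv12-46 and from 5.48 to 6.3 for Igkv19-93, and Igkv4-70 was left with no control count. Without control replicate 2 it was 8.75 for Igkv12-46, 4.96 for Igkv19-93 and 6.91, in place of 7.89, for Igkv4-70.

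Other abundant segments were shared by both groups and rose by less. Igkv14-126 (ENSMUSG00000094345, chr6:67896172-67896642, plus strand) had 1470 and 1160 control counts and 4923, 4785, 5475 and 4105 MC38 counts. Its level was 110 ± 19.6 and 317 ± 14.5 CPM, 2.89-fold higher in MC38 (log2 fold change 1.53 ± 0.14 SE, edgeR, adjusted p = 5.91e-04). Igkv15-103 had 713 and 695 against 2889, 2620, 2968 and 2357, a 3.04-fold difference (edgeR, adjusted p = 2.86e-04). Igkv13-84, with 293 and 195 against 887, 819, 991 and 714, was 2.75-fold higher (edgeR, adjusted p = 0.00987, and 0.0745 without control replicate 2).

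Some abundant segments missed the threshold. Igkv10-96 had 1095 and 718 control counts and 1842, 1754, 2094 and 1597 MC38 counts (75.6 ± 23.1 and 120 ± 3.16 CPM, edgeR, adjusted p = 0.0994). Igkv3-2, the member nearest to the joining segments at 23.5 kb, had 650 and 425 against 1250, 1250, 1184 and 847 (edgeR, adjusted p = 0.139). Igkv8-19 had 848 and 668 against 585, 451, 451 and 453, at 63.2 ± 11.4 and 32.2 ± 5.92 CPM (edgeR, adjusted p = 0.0544). These values did not overlap between the groups in CPM, and DESeq2 called all 3 (adjusted p = 0.0127, 0.0314 and 0.00268).

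Segments that fell included several that were prominent in the controls. Igkv14-111 had 1365 and 980 counts in the controls and 15, 12, 0 and 2 in MC38, 198-fold lower (edgeR, adjusted p = 2.76e-04), and its log2 fold change moved from -7.64 to -8.27 without MC38 replicate 1. Igkv4-91 had 596 and 576 against 24, 13, 15 and 13 (45.4-fold lower, adjusted p = 4.6e-05). Igkv2-112, the only member of its subfamily, had 307 and 201 against 0 in all 4 MC38 libraries, at least 431-fold lower against a floor of 3 counts over the group (edgeR, adjusted p = 0.00102). All MC38 libraries lay below both controls for each of these, as the rule for naming them required. Igkv4-86 had 518 and 284 control counts and a single count in the 4 MC38 libraries, a ratio of 2040 with a counting interval of 364 to 80500 (edgeR, adjusted p = 5.24e-05). That count was in MC38 replicate 4.

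The remaining calls in this direction were of lower abundance or smaller size. Igkv3-5 had 362 and 243 counts in the controls and 8, 0, 9 and 0 in MC38 (97.2-fold lower, edgeR, adjusted p = 0.00456). Igkv1-110 had 297 and 168 against 0, 4, 21 and 11 (34.4-fold lower, edgeR, adjusted p = 0.0173), and its log2 fold change moved from -5.06 to -5.74 without MC38 replicate 3. Igkv6-32 had 146 and 141 against 4, 7, 22 and 10 (17.6-fold lower, edgeR, adjusted p = 0.00987). Igkv4-59 fell least of these, with 476 and 370 against 122, 113, 128 and 58 (5.16-fold lower, edgeR, adjusted p = 0.0048). Without control replicate 1, the adjusted p of Igkv3-5, Igkv1-110, Igkv6-32 and Igkv4-59 was 0.113, 0.223, 0.113 and 0.105, and these are the calls that take the count from 10 to 6.

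The ends of the V exons show what a joined transcript keeps of each segment up to the junction. They are printed in the direction of transcription with the last in-frame cysteine codon in capitals, for 3 segments that rose (Igkv8-16, chr6:70386672-70386703, minus strand; Igkv4-57-1, chr6:69544359-69544392, minus strand; Igkv14-126, chr6:67896611-67896642, plus strand) and 3 that fell (Igkv2-112, chr6:68220676-68220706, plus strand; Igkv4-86, chr6:68910411-68910441, minus strand; Igkv14-111, chr6:68256838-68256869, plus strand).
Igkv8-16: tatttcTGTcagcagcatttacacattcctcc
Igkv4-57-1: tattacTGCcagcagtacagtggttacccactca
Igkv14-126: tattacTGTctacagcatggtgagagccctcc
Igkv2-112: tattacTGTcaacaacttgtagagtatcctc
Igkv4-86: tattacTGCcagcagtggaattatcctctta
Igkv14-111: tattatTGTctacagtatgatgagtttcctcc
The bases after this codon form the germline start of the third complementarity-determining region, the loop that the join completes. The segments differ in this stretch, and the deposited counts do not record the joins themselves.

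By subfamily, members that rose and members that fell stood side by side in subfamilies 6, 4, 1 and 14. Subfamily 6, the largest by counts, held 26.6 and 30.3% of control and 20.6 to 21.2% of MC38 counts, with 2 of its 7 members called higher and 3 lower. Subfamily 14 held 19.0 and 18.1% against 17.7, 17.8, 18.3 and 18.0%, and the groups overlapped. Within it, Igkv14-126 rose while Igkv14-111 fell. These shares rested on the leading segments: with Igkv6-15 and Igkv14-126 left out of all libraries, subfamily 6 held 17.5% of control and 23.5% of MC38 counts, the opposite direction, and subfamily 14 held 11.7 and 0.0627%. Subfamily 4, with 16 members the largest by number, held 14.3 ± 0.8% of control and 7.45 ± 0.21% of MC38 counts, with 4 members called higher and 3 lower.

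Larger shares in MC38, without overlap of the groups, were held by subfamilies 8, 15, 19, 12, 13, 5 and 9. Subfamily 8 held 6.37 ± 0.22% of control and 12.9 ± 0.43% of MC38 counts, and 5 of its 6 members were called higher. Subfamily 15 is Igkv15-103 alone and went from 5.34 ± 0.77 to 10.1 ± 0.31%. Subfamily 19 went from 0.152 ± 0.071 to 4.41 ± 0.67% and subfamily 12 from 0.114 ± 0.066 to 2.38 ± 0.17%. The shares were 1.81 ± 0.22 and 3.16 ± 0.12% for subfamily 13, 3.2 ± 0.061 and 4.02 ± 0.11% for subfamily 5, and 0.0761 ± 0.06 and 0.425 ± 0.078% for subfamily 9. Besides subfamilies 6 and 4, smaller shares in MC38 without overlap were held by subfamilies 1, 3, 2, 11, 16 and 18. Subfamily 1 went from 4.78 ± 0.13 to 2.74 ± 0.25%, subfamily 3 from 6.29 ± 0.84 to 4.38 ± 0.48% and subfamily 2 from 1.88 ± 0.25 to 0%. Subfamilies 11, 16 and 18 were each under 1% in both groups. Subfamily 10, like 14 and 17, overlapped between the groups (6.72 ± 0.9 and 7.42 ± 0.33%). The direction of these shifts is given without a test, as shares of a fixed total are not independent of each other.

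**Figure D4:**
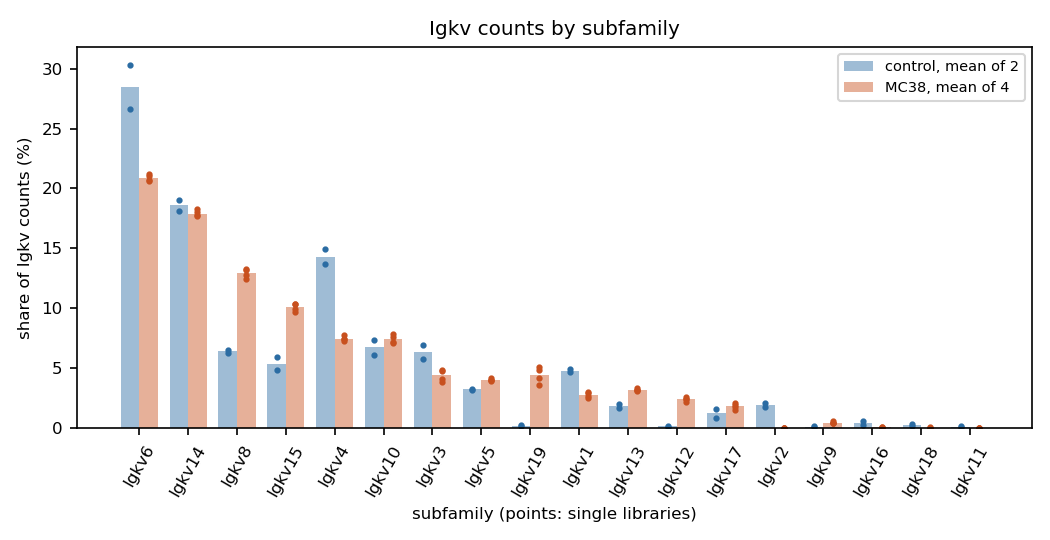
Share of Igkv counts (%, y axis) by subfamily (x axis), as bars for the mean of the 2 control and the 4 MC38 libraries with a point per library. Among others, subfamilies 6 and 4 hold less in MC38 and 8, 15, 19 and 12 hold more, while 14, 10 and 17 overlap. Without Igkv6-15 and Igkv14-126, subfamily 6 turns to 17.5 and 23.5% and subfamily 14 separates to 11.7 and 0.0627%.

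Near-identical relatives could also differ. At least 97% V exon identity to another annotated segment was found for 13 members, and the median identity to the nearest segment was 95.4%, so that reads within shared stretches may have been dropped or assigned to the wrong segment. The treatment of multiply mapped reads is not given in the sources used here. Within the pair Igkv8-28 and Igkv8-19 (97.8% identical), Igkv8-28 went from 0.0413 to 42.0 CPM while Igkv8-19 stood at 63.2 and 32.2 CPM. The last 300 bases of their V exons, at chr6:70143593-70143892 and chr6:70340876-70341175 on the minus strand, show the differing positions, 7 in all, in capitals.
Igkv8-28: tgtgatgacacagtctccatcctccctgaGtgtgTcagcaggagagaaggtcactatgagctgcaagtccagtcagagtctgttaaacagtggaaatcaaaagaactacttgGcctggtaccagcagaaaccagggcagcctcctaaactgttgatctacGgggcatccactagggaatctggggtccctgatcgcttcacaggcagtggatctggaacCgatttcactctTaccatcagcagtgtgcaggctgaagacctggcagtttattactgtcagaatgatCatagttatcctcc
Igkv8-19: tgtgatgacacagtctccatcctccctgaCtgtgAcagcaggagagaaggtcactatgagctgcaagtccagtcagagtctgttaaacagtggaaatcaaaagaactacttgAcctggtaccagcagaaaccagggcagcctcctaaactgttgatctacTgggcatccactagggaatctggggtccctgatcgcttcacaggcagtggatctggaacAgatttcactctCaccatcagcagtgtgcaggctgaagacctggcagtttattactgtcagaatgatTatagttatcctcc
Igkv4-70 and Igkv4-59 (97.3%) moved in opposite directions, from 0.21 to 51.4 CPM and from 35.3 to 6.84 CPM. Igkv5-43 and Igkv5-45 (99.0%) differ at 3 positions, shown in capitals in a stretch of 60 bases on the minus strand at chr6:69823538-69823597 and chr6:69775933-69775992.
Igkv5-43: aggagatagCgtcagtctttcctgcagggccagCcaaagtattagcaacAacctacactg
Igkv5-45: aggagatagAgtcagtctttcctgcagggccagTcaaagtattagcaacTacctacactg
Igkv5-43 went from 0.0413 to 25.4 CPM and Igkv5-45 stood at 2.29 and 1.72 CPM, with 28 and 27 control counts and 35, 31, 19 and 18 MC38 counts. With near-identical segments summed, 21 members were called higher and 9 lower.

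Position along the locus did not separate the groups at the scale of 1 Mb. The 28 members under 1 Mb from Igkj1 held 43.6 and 45.8% of Igkv counts in the controls and 44.5, 45.6, 44.2 and 43.9% in MC38. The 20 members at 1 to 2 Mb held 16.4 ± 1.0 and 15.7 ± 0.84%, and the 15 members at 2 to 3 Mb held 38.7 ± 0.58 and 38.8 ± 1.1%. Only the 2 members beyond 3 Mb, mainly Igkv1-135, had shares that did not overlap (0.189 ± 0.068 and 0.959 ± 0.12%). This likeness rested on single segments: without the top segment of each group, Igkv6-15 and Igkv14-126, the share under 1 Mb was 39.2% in the controls and 53.1% in MC38.

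Calls in both directions were found in each of the 3 steps nearest to Igkj1, with 10 higher and 4 lower under 1 Mb, 7 and 3 at 1 to 2 Mb, and 5 and 3 at 2 to 3 Mb. Among the 49 tested segments, the next tested segment along the locus had the opposite call in 8 cases, with gaps of up to 170 kb. Members not tested lay between Igkv4-70 and Igkv4-59, the pair with that gap. Whether 8 exceeds what the mix of calls would give was not tested. Igkv8-16 and Igkv6-15 lie 19.2 kb apart and Igkv8-21 and Igkv6-20 lie 20.4 kb apart, and in both pairs the subfamily 8 segment rose and the subfamily 6 segment fell. Segments on the strand opposite to Igkc, which join by inversion, held 59.3 and 60.2% of control and 59.9, 60.1, 58.7 and 59.4% of MC38 counts. Segments on the same strand, which join by deletion, held the rest, and the groups overlapped.

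**Figure D5:**
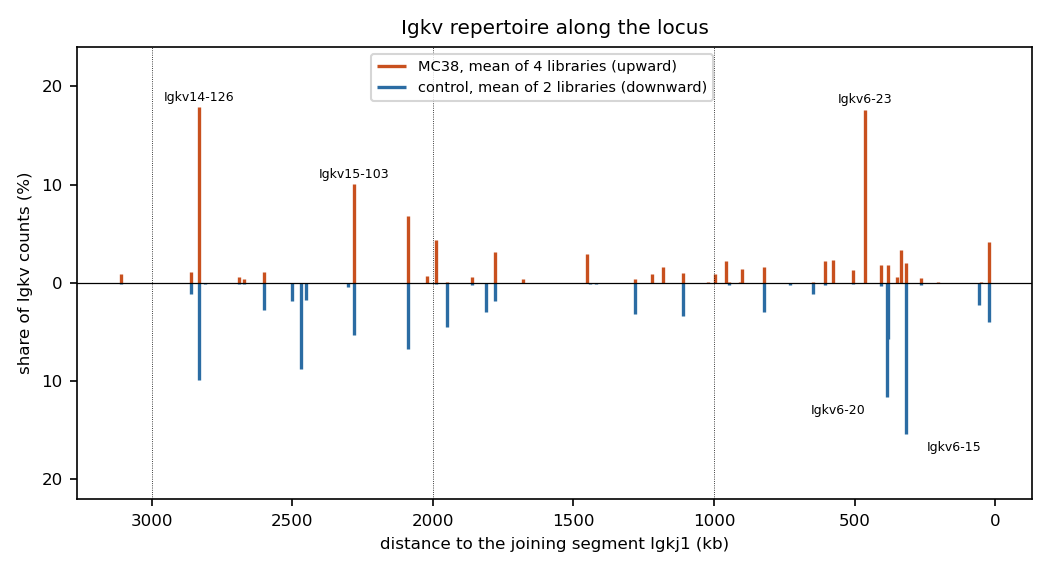
Mean share of Igkv counts (%, y axis) of each segment against its distance to Igkj1 (kb, x axis), upward for MC38 and downward for control, with dotted lines every 1000 kb. Igkv14-126 and Igkv15-103 at 2 to 3 Mb and Igkv6-23 under 1 Mb lead in MC38, and Igkv6-15 and Igkv6-20 under 1 Mb lead in control.

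Genes of the cells that make kappa chains were listed beside all genes tested, of which 1.04% were called higher and 0.569% lower. Of 15 B cell markers, 1 rose and none fell: Cd37, a tetraspanin of B cells also expressed by other leukocytes, went from 106 to 171 CPM (edgeR, adjusted p = 0.0235, and 0.0875 to 0.184 without control replicate 1 or 2 or MC38 replicate 2 or 4). Ms4a1, which encodes CD20, stood at 6.34 ± 1.37 and 8.23 ± 2.96 CPM, and Cd79a, a signalling chain of the B cell receptor, at 56.4 ± 5.59 and 76.0 ± 14.1 (edgeR, adjusted p = 0.716 and 0.294). The list summed to 0.0358 to 0.0399% of control counts and 0.0471 to 0.0539% of MC38 counts, with its median log2 fold change at 0.38 beside 0.01 over all genes.

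Of 15 plasma cell genes, 0 were called by edgeR, 2 passed 0.05 before adjustment (unadjusted p), and DESeq2 called 1 (Irf4, a transcription factor of plasma cells) and limma-voom 0. Their sum was 0.0826 to 0.0876% of control counts and 0.0726 to 0.0937% of MC38 counts. Jchain, which links antibody multimers, stood at 432 ± 31.8 and 368 ± 89.9 CPM, Mzb1, a chaperone of antibody secretion, at 21.6 ± 1.73 and 22.1 ± 3.9, Sdc1, which encodes CD138, at 5.74 ± 0.635 and 10.2 ± 3.17, and Tnfrsf17, the receptor BCMA, at 1.08 ± 0.575 and 1.76 ± 0.781 (edgeR, adjusted p = 0.61, 0.958, 0.328 and 0.761). No marker of either list was at 0 in all 6 libraries. The part of B cell and plasma cell RNA in the Igkv values was not tested.

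The machinery of kappa rearrangement was also listed. Of 8 tested genes of early lymphoid and pre-B cells, 0 were called by edgeR, with a median log2 fold change of 0.97. In that list 4 genes had an unadjusted p under 0.05, DESeq2 called 1 higher (Igll1) and limma-voom called 0. Rag1, a subunit of the recombinase, had 26 and 0 counts in the controls and 14, 43, 127 and 61 in MC38 (edgeR, adjusted p = 0.521), and Rag2, the other subunit, had 1 and 0 against 4, 0, 0 and 0 and was not tested. Dntt, which adds bases at joins, stood at 48.7 ± 3.02 and 38.4 ± 2.28 CPM, and the surrogate light chain genes Vpreb1 and Igll1 at 11.0 ± 3.45 and 12.8 ± 1.97 and at 8.99 ± 5.82 and 23.0 ± 1.41 (edgeR, adjusted p = 0.313, 0.793 and 0.111). None of 12 tested genes of V(D)J end joining was called by edgeR, DESeq2 or limma-voom, and 1 had an unadjusted p under 0.05. Of 15 regulators of the kappa locus, 0 were called by edgeR and by limma-voom, 2 were below 0.05 in unadjusted p, and DESeq2 called 2 higher (Irf4 and Irf8).

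The other immunoglobulin constant genes moved in both directions, with 3 of 6 tested called higher and 1 lower. Ighm, the heavy chain of IgM, rose from 840 to 2250 CPM (edgeR, adjusted p = 7.44e-04), Ighg1 from 0.124 to 50.5 CPM (adjusted p = 5.83e-05, and 0.104 with limma-voom) and Ighg2c from 183 to 354 CPM (adjusted p = 0.00453, and 0.0602 and 0.0759 without control replicate 1 or 2). Igha, the heavy chain of IgA, fell, with 1020 CPM in the controls and 334 CPM in MC38 (edgeR, adjusted p = 0.00212, and 0.0558 without control replicate 1). Among markers of other cells, edgeR called 0 of 6 T cell genes (3 with an unadjusted p under 0.05, 1 call by DESeq2 and 0 by limma-voom), with a median log2 fold change of 1.09. They summed to 0.0019 to 0.00238% of control and 0.00353 to 0.00481% of MC38 counts. Of 6 macrophage genes, edgeR called 1 higher, DESeq2 3 (C1qa, C1qb and C1qc, the chains of complement C1q) and limma-voom 0, with a median log2 fold change of 1.89. C1qa had 1 and 3 counts in the controls and 80, 70, 74 and 40 in MC38 (edgeR, adjusted p = 0.0342), and C1qb and C1qc stood at 1.9 and 11.4 CPM and at 0.784 and 7.49 CPM (edgeR, adjusted p = 0.0955 and 0.136). The list summed to 0.00187 to 0.00308% of control and 0.00426 to 0.0067% of MC38 counts. Both sums were thus higher in MC38 without overlap, as the Igkv share was. So were the sums of the B cell list and of both lists with immunoglobulin constant genes. Early lymphoid and pre-B genes (0.019 to 0.0214% and 0.0241 to 0.0266%) and kappa locus regulators (0.0852 to 0.0888% and 0.0905 to 0.0987%) were likewise separated. The sums of plasma cell, end joining and stem cell genes overlapped. Of all single genes tested, 14.0% also had every MC38 library above both controls. The sums follow their most abundant genes, such as Vcam1 in the macrophage list and Flt3 in the early lymphoid list. The part of any of these cells in the Igkv values was not tested.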

How the data were processed

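RNA-seq was measured in 3 control and 4 MC38 libraries. Whole-number counts per gene were deposited by the authors in 1 table. The submitters' processing notes name HTSeq 0.10.0, STAR 2.6.1 and Trim Galore 0.5.0, with mm10 as the build. No source used here gives the annotation release, strand setting or treatment of multiply mapped reads. Control column 3 was left out of the comparison. Groups were taken from the sample labels.

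Counts were tested with edgeR 4.0.16 (R 4.3.3; TMM, filterByExpr, robust quasi-likelihood fit, Benjamini-Hochberg adjustment over all 14226 genes, threshold 0.05), without covariates, on 2 control and 4 MC38 libraries. On simulated data with 200 of 14226 genes changed 4-fold, 66% were recovered and 3.6% of calls were false. CPM used TMM-scaled library sizes. Shares are of the summed Igkv counts of a library, and carry counting and replicate error only. Coordinates and sequences came from GENCODE M21 (mm10), matched by Ensembl ID. V exon identity used Biopython 1.88 and was taken over the shorter exon of a pair. Alternatives were DESeq2 1.42.0, limma-voom (limma 3.58.1), other scalings and filters, and leaving out each replicate.

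The members and gene lists were chosen with earlier results of these data known. Named segments were the 10 with the largest fitted edgeR log2 fold change in each direction among calls without overlap of the groups, and the 10 with the most counts. Ighg1, Ighg2c, Igha, Cd37, Irf4, Irf8, C1qa, C1qb, C1qc and Igkv5-45 were named after their values were seen, as were segments in pairs of relatives or neighbours. A marker of the B cell list is not reported here.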

Additional observations from a re-analysis of the deposited data

Results flagged for a closer look

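Values of the 4 MC38 libraries were screened for a library standing apart from the other 3, by Dixon's criterion, over 34 values. Chance marks about 1 in 20 such groups, and 4 were found. Igkv4-91 was at 1.61 CPM in MC38 replicate 1, above the other MC38 libraries and still far below both controls. Igkv4-86 was at 0.074 CPM in MC38 replicate 4, which is a single count where the others had 0. Igkv4-70 was at 55.4 CPM in MC38 replicate 2, slightly above the others. The leading segment held 18.3% of Igkv counts in MC38 replicate 3, a difference from the others that is small beside the gap to the controls.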

How the results depend on the processing

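Of 24 named segments that were called, 14 were called under each of 14 alternative runs, and 0 changed direction under any. The run with near-identical segments summed was not among these runs, as it merged some named segments, such as Igkv4-70 with Igkv4-59. Calls of named segments were lost with limma-voom (6), without control replicate 1 (4), without control replicate 2 (3), and without MC38 replicates 2 and 4 (1 each, Igkv1-110). The count of members called higher was 23, ran from 19 to 24 as each replicate was left out, and was 13 with limma-voom; the count called lower was 10 and ran from 6 to 12, the lowest without control replicate 1. DESeq2 called 28 higher and 12 lower of 58 tested. All 7 columns gave 29 and 13, but that run counts column 3, which is not independent of the other controls, as a replicate. The labels state no pairing of libraries by replicate number. Deviations of same-numbered libraries from their group means had correlations of 0.073 and -0.052 for numbers 1 and 2. With 2 controls these values are not independent of each other, and a shared batch was not tested. With the replicate number as a block 25 members were called higher and 10 lower. The Igkv share of all counts ran from 0.0959 to 0.123% in the controls and from 0.175 to 0.181% in MC38 as each replicate was left out, and was 0.146% in MC38 without its leading segment. The repertoire in common within MC38 ran from 94.8 to 95.9% and between the groups from 38.2 to 38.5%. Without the leading segment of each group it was 90.8% within the controls and 34.4% between the groups. With near-identical segments summed it was 43.7% between the groups. With column 3 included it was 94.9% within the controls, but that column is not independent of the other controls. The cause of these changes was not tested. With 2 control libraries, a segment's control spread is poorly known, and 16 members had too few counts to be tested.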
